A study of Mus musculus with 4 samples.

Results

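The protocadherins are cell surface proteins of the cadherin superfamily, and their transcripts were followed here across all peaks of the RNA methyl mark N6-methyladenosine (m6A) whose deposited gene symbol begins with Pcdh. That rule selected 370 of the 33977 rows of the deposited peak table and 64 of its 10415 genes. The clustered genes held 76 rows of 13 Pcdha genes, 97 rows of 19 Pcdhb genes and 93 rows of 21 Pcdhg genes, and the unclustered genes, those with a number after Pcdh, held 104 rows of 11 genes. Of the 70 Pcdh genes that RefSeq lists for the mouse, 64 had at least 1 row. The other 6 (Pcdh12, Pcdha10, Pcdhb1, Pcdhb4, Pcdhb8 and Pcdhga2) had no row under their own symbol in the table used here.

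The study compared cortex from mice given repeated mild head injury (rmTBI) with cortex from sham-treated mice, by sequencing RNA fragments pulled down with an antibody against m6A. Each group has 2 libraries, which the labels number 0 and 1, and an antibody to m6A is labelled for all 4. The labels used here state neither strain, age and sex nor how the injury was given, when the tissue was taken, or whether the libraries of a group are separate mice or pools. P-values thus reflect the scatter of the 4 libraries alone, part or all of which may be technical. Nor do the labels explain the numbers 0 and 1; if they mark different kinds of library, a mean over the 2 libraries of a group mixes them, and values are therefore given for every library and within each number. The series description asks how the m6A of transcripts differs after the injury. If the antibody was used in every library, as labelled, counts at a peak cannot tell more methylation from more transcript. In bulk tissue, fewer cells of a type and less RNA per cell cannot be told apart.

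Protocadherins carry extracellular cadherin repeats. The Pcdha, Pcdhb and Pcdhg genes lie in tandem clusters on the same chromosome, and a neuron switches on its own small set of them by promoter choice, so that the isoforms on its surface label it and let its dendrites recognise and avoid their own sister branches. Each Pcdha and Pcdhg gene supplies a long variable exon, which encodes the outer part and the membrane span and is spliced to short constant exons shared by the whole cluster, whereas each Pcdhb gene is a single exon with no shared part. The C-type genes (Pcdhac1, Pcdhac2, Pcdhgc3, Pcdhgc4 and Pcdhgc5) stand at the ends of their clusters and are less subject to that random choice. The unclustered genes are scattered over the genome, have their own promoters, and act in axon growth, synapse formation and cell sorting. In mammalian messenger RNA, m6A is laid down by the METTL3 and METTL14 complex, mostly in long exons and near stop codons.

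Counts over all peaks summed to 13753600 and 26888072 in rmTBI libraries 0 and 1 and to 14437317 and 26356562 in sham libraries 0 and 1. Levels below are CPM, counts relative to library totals scaled by edgeR's TMM factors, and levels are compared between genes only as CPM per kb of peak. Peaks were called separately for rmTBI and for sham and stacked in the table, so that most sites appear as a row of each set. Protocadherin rows that overlapped by at least 1 base, on either strand, were merged into places. Each place is represented by 1 row, on the strand of its gene where such a row existed. That left 194 protocadherin places: 31 of Pcdha, 51 of Pcdhb, 51 of Pcdhg and 61 of unclustered genes. Of the 181 protocadherin rows of the rmTBI set, 131 (72.4%) overlapped a row of the sham set on the same strand. Of the 189 rows of the sham set, 139 (73.5%) overlapped a row of the rmTBI set. Over all rows of the table the shares were 71.1% for the rmTBI set and 64.1% for the sham set. Near copies of 1 shared Pcdha exon, described below, make up 11 rows of the rmTBI set and 12 of the sham set. Markers of cortical excitatory neurons were measured for all 6 genes listed, with a summed level of 1125 and 973 CPM in the rmTBI libraries, against 813 and 726 CPM in the sham libraries.

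Some rows repeat the same reads. Of the 24 rows named Pcdha1, 23 were near copies of each other that began between 37184964 and 37185019 and ended between 37185288 and 37185330 on chromosome 18, far downstream of the Pcdha1 variable exon and beyond the places of Pcdhac2, the last variable exon, within the part of the cluster that all Pcdha transcripts share. Their counts ran from 775 to 778 and from 1721 to 1725 in rmTBI libraries 0 and 1, against 728 to 738 and 1693 to 1696 in sham libraries 0 and 1. They can hold reads of any Pcdha transcript and do not measure Pcdha1 alone. Rows also recurred on the strand opposite to the cluster: 24 clustered rows did so, and in 17 of 25 such member rows a row on the gene's own strand covered at least 80% of the joint length, with a largest count difference in any library of 2.75% in the median row and of 42.4% in the widest. Where both rows hold nearly the same counts, the counts do not separate the strands, and a transcript antisense to a protocadherin cannot be told apart from it. Variable exons of neighbouring genes are close in sequence, so that reads may also be split among them.

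Clustered protocadherin peaks lay almost wholly in coding sequence. By the authors' classes, 95.1% of the 266 clustered rows were coding, against 50.4% of all rows in the table. The 3' UTR class held 7 clustered rows, all of Pcdhb genes, or 2.63%, against 39.7% of all rows. The unclustered rows were spread more widely, with 64.4% classed as coding, 20.2% as 3' UTR and 15.4% as 5' UTR. These shares are descriptions and were not tested.

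Within the variable exons the peaks sat at similar distances. The 51 Pcdhg places had their middle at a median of 1133.5 bases from the RefSeq start of their gene and none lay beyond 2450.5 bases, so that no place fell in the constant exons at the end of the Pcdhg cluster. The 28 Pcdha places near their gene's start lay at a median of 1257 bases and at most 2499 bases from it. Another 2 places named Pcdha11 lay before the RefSeq start of that gene. In the single-exon Pcdhb genes, 27 of the 47 places inside the gene fell in the first of 3 equal parts of the gene, 14 in the middle part and 6 in the last part. For 15 of the 19 Pcdhb genes the place with the highest CPM per kb was in the first part.

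Levels differed widely between the classes and along the clusters. The constant-exon place of the Pcdha cluster (37184991 to 37185321 on chromosome 18) had 58.9 and 62.0 CPM in rmTBI libraries 0 and 1, against 52.6 and 62.0 CPM in sham libraries 0 and 1, or 178 CPM per kb as a mean of the 4 libraries. The groups overlapped. The variable exons were lower: counting short places only, the other Pcdha genes ran up to 22.8 CPM per kb at Pcdha12 and 21.8 at Pcdhac2, with the lowest value of 4.24 at Pcdha2. Pcdhb genes ran from 3.73 CPM per kb at Pcdhb5 to 13.8 at Pcdhb20, with a median of 6.64 over 19 genes. Pcdhg genes ran from 8.40 CPM per kb at Pcdhga4 to 49.5 at Pcdhgb6, with a median of 21.5 over 21 genes.

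The Pcdhg level climbed along the cluster. Across its 21 genes, CPM per kb and order from the 5' end had a Spearman rho of 0.89 and 0.72 in rmTBI libraries 0 and 1 and of 0.91 and 0.80 in sham libraries 0 and 1; neighbouring genes share a cluster, a library and similar sequence, and these are descriptions across genes. The first 4 genes with a row, Pcdhga1, Pcdhga3, Pcdhgb1 and Pcdhga4, had 8.41, 10.9, 9.83 and 8.40 CPM per kb. The C-type genes at the far end were higher: Pcdhgc3, whose cytoplasmic part binds Axin1 and limits Wnt signalling, had 47.3 CPM per kb, Pcdhgc4, which supports the survival of interneurons in the mouse, had 24.6, and Pcdhgc5, which binds a GABA type A receptor subunit, had 48.6. The Pcdhb cluster had a weaker trend of the same sign, with rho of 0.29 and 0.36 in rmTBI libraries 0 and 1 and of 0.57 and 0.58 in sham libraries 0 and 1 across 19 genes.

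**Figure D1:**
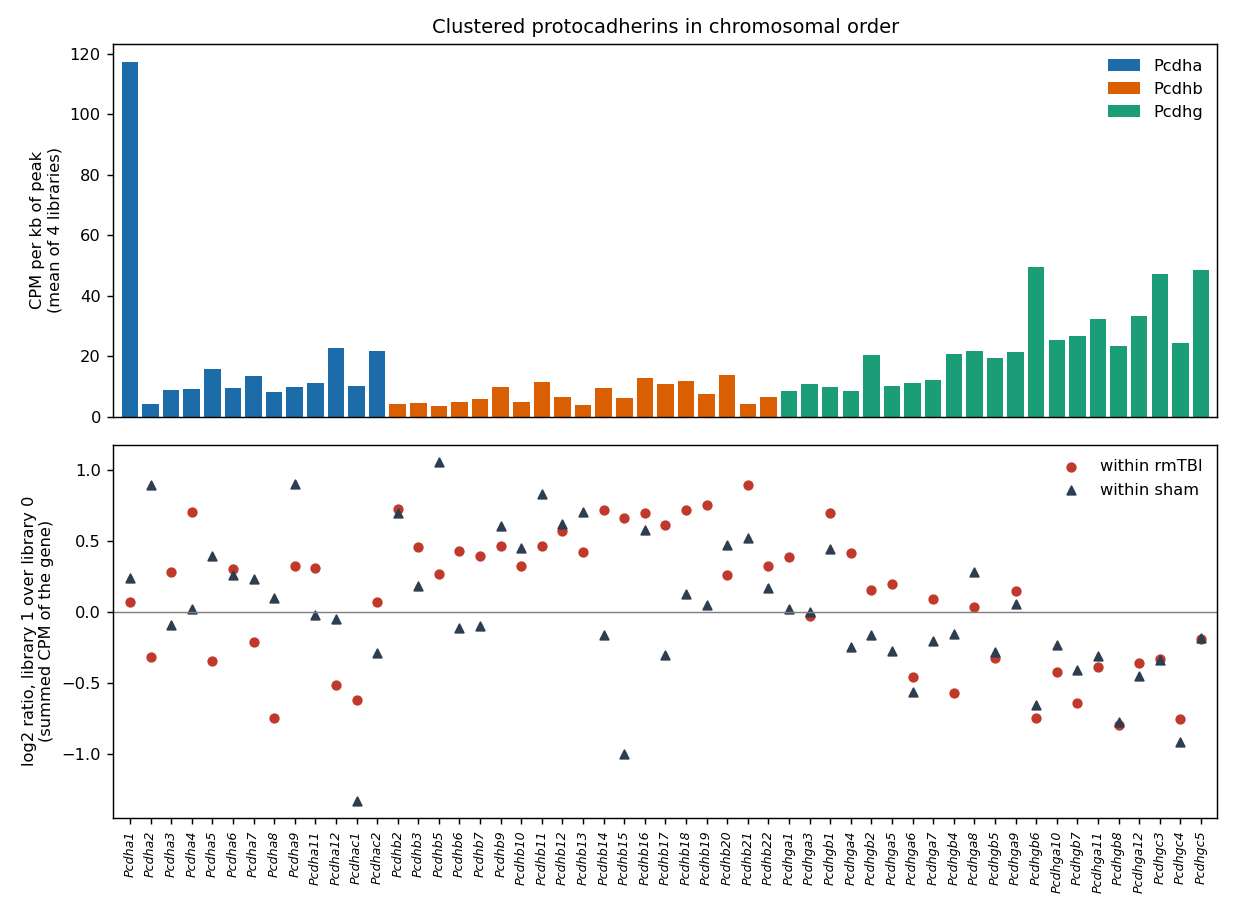
Clustered protocadherins in chromosomal order. The upper panel shows bars of CPM per kb of peak (mean of 4 libraries) for each gene, coloured by cluster; Pcdha1 holds the constant-exon place, and the Pcdhg bars climb from 8.41 at Pcdhga1 to 48.6 at Pcdhgc5. The lower panel shows the log2 ratio of library 1 over library 0 of each gene's summed CPM, within rmTBI (circles) and within sham (triangles): of 19 Pcdhb genes 14 lie above 0 in both groups, and of 21 Pcdhg genes 13 lie below 0 in both.

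The levels of the unclustered genes ran from 5.40 to 197 CPM per kb. Pcdh10, which guides axons and recruits the WAVE actin-regulating complex, was first with 169 and 233 CPM per kb in rmTBI libraries 0 and 1, against 161 and 224 CPM per kb in sham libraries 0 and 1. Pcdh9, a neuronal protocadherin of the delta-1 group, followed with 130 and 151 CPM per kb in the rmTBI libraries, against 153 and 174 CPM per kb in the sham libraries. Pcdh1, also of the delta-1 group and known in humans as a hantavirus receptor and an airway gene, had 106 and 113 CPM per kb in the rmTBI libraries, against 85.3 and 90.9 CPM per kb in the sham libraries. Neither Pcdh9 nor Pcdh1 had overlapping groups at this summed level. Of the 11 unclustered genes, 4 (Pcdh1, Pcdh8, Pcdh11x and Pcdh15) had both rmTBI libraries above both sham libraries, and 1, Pcdh9, had both below. Among all tested single rows, both rmTBI libraries were above both sham libraries in 12.3% and below in 12.3%. Genes summed in this way were not counted over the whole table.

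Means over the 4 libraries then fell to 49.3 CPM per kb for Pcdh7, a delta-1 protocadherin of axons, and 38.6 for Pcdh17, which organises presynaptic vesicles in corticobasal circuits. Pcdh11x on the X chromosome had 20.9 CPM per kb, Pcdh20 had 20.5 and Pcdh8, an activity-induced protein also called arcadlin that drives the uptake of N-cadherin, had 18.6. Pcdh15, which forms the tip link of inner ear hair cells with Cdh23, had 13.4, Pcdh19, the gene of an X-linked epilepsy in humans, had 13.1, and Pcdh18, which binds the adaptor Dab1, had 5.40. In this order the ranges over the 4 libraries were apart between Pcdh9 and Pcdh1, Pcdh1 and Pcdh7, Pcdh17 and Pcdh11x, and Pcdh19 and Pcdh18. They overlapped for each other pair of neighbours. Pcdh11x, at 18.9 to 22.1 CPM per kb over the 4 libraries, lay wholly above Pcdh15 at 9.70 to 16.0 and Pcdh19 at 12.6 to 14.01.

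**Figure D2:**
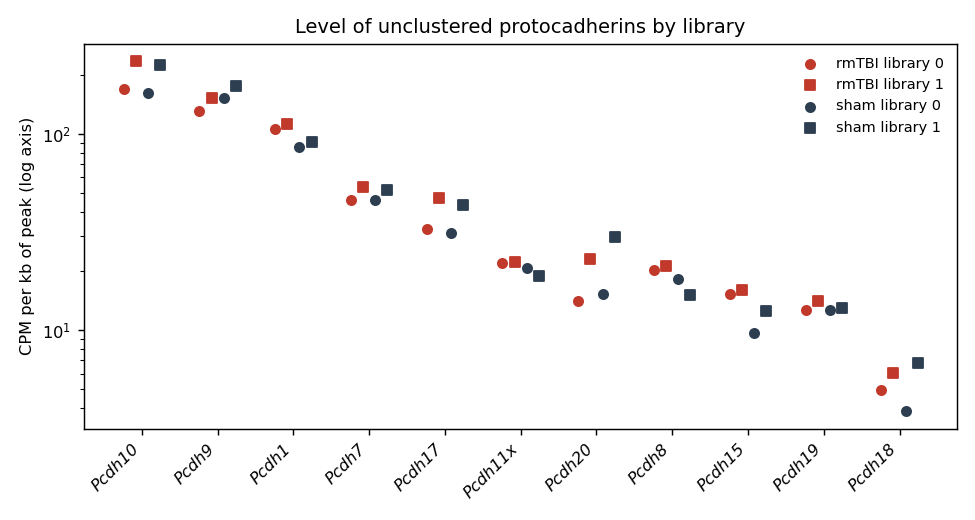
Level of each unclustered protocadherin in each library, as CPM per kb over its places of at most 2000 bases (log axis), in order of the mean, with rmTBI points (red) left of sham points (dark). Pcdh10 at 161 to 233 CPM per kb is at the left, and Pcdh18 with a mean of 5.40 is at the right; in Pcdh1 both rmTBI points are above both sham points.

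For rmTBI against sham, no protocadherin peak passed the test of group alone. That model counts any difference between the numbers as scatter within a group, so the SEs given below for rmTBI against sham include it. A fit with the number added is described in the closing section. Of the 364 member rows with enough counts to be tested, 0 were called by edgeR's quasi-likelihood test with Benjamini-Hochberg adjustment over 33415 rows, in a model of group alone, against 0.0868% of all tested rows. At an unadjusted p under 0.05 there were 3 member rows (0.824%), 2 of them higher and 1 lower, against 2.84% of all tested rows, or 0.73% on the higher side. DESeq2 called 0 of the 364 member rows, against 0.433% of the rows it adjusted, and put 1 under an unadjusted p of 0.05, against 2.2% of all. The adjusted p of every member was 1 in the edgeR test.

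Beyond the test, member rows leaned higher in rmTBI by small amounts. Of the 364 rows, 250 had a log2 fold change (rmTBI over sham) above 0, and the median was 0.09, against 0.02 over all tested rows. Within both numbers 160 rows were above 0, against 32% of all tested rows, and 61 were below 0, against 28.5%. In 59 rows (16.2%) both rmTBI libraries were above both sham libraries, against 12.3% of all tested rows, and in 20 (5.49%) both were below, against 12.3%. Rows that cover the same place share reads and are counted separately here. By place, both rmTBI libraries were above both sham libraries in 30 of 189 and below in 13.

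The leaning differed by class in size and in steadiness. The median log2 fold change was 0.08 over 76 Pcdha rows, 0.13 over 94 Pcdhb rows, 0.14 over 93 Pcdhg rows and 0.06 over 101 unclustered rows. By place it was 0.10 for Pcdha, 0.04 for Pcdhb, 0.16 for Pcdhg and 0.06 for unclustered genes, and 25 of the 49 Pcdhb places were above 0. Within the libraries numbered 0 the medians were 0.16 for Pcdha, -0.05 for Pcdhb, 0.10 for Pcdhg and -0.01 for unclustered rows. Within those numbered 1 they were 0.0015 for Pcdha, 0.16 for Pcdhb, 0.18 for Pcdhg and 0.09 for unclustered rows. The 23 copies of the shared Pcdha exon weigh on the Pcdha row medians: by place the Pcdha median was 0.01 within number 0 and 0.09 within number 1. By place the others were -0.07 for Pcdhb, 0.11 for Pcdhg and -0.01 for unclustered genes within number 0, and 0.13, 0.22 and 0.09 within number 1. By row and by place, the Pcdhg median was thus above 0 in both numbers, and the Pcdhb and unclustered medians changed sign. A fit without 1 library leaves that group with a single number, so the ratio between the numbers enters its fold. Without rmTBI library 1 the Pcdhb median was -0.26, and without sham library 0 it was -0.06. The Pcdhg median was -0.02 without rmTBI library 0, and the Pcdha median was -0.05 without sham library 0.

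Markers of other tissue and cell types differed between the groups in the same libraries. The 8 measured of 9 thalamus markers were all lower in rmTBI, with a median log2 fold change of -2.59 and a summed level of 89.6 and 104.0 CPM in the rmTBI libraries, against 491 and 553 CPM in the sham libraries. The 7 measured of 9 myelin markers were all lower in rmTBI, with a median of -0.80 and a summed level of 463 and 411 CPM in the rmTBI libraries, against 659 and 629 CPM in the sham libraries. The 6 cortical excitatory markers were all higher in rmTBI, with a median of 0.53. Progenitors of oligodendrocytes (median 0.03 over 4 genes), microglia (0.12 over 5), endothelium (-0.17 over 4) and interneurons (0.15 over 3) were nearer to 0. Of 5 choroid plexus and ependyma genes, 4 were lower and 1 was higher in rmTBI, with a median of -1.85. The part of these cell types in the protocadherin values was not tested.

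**Figure D3:**
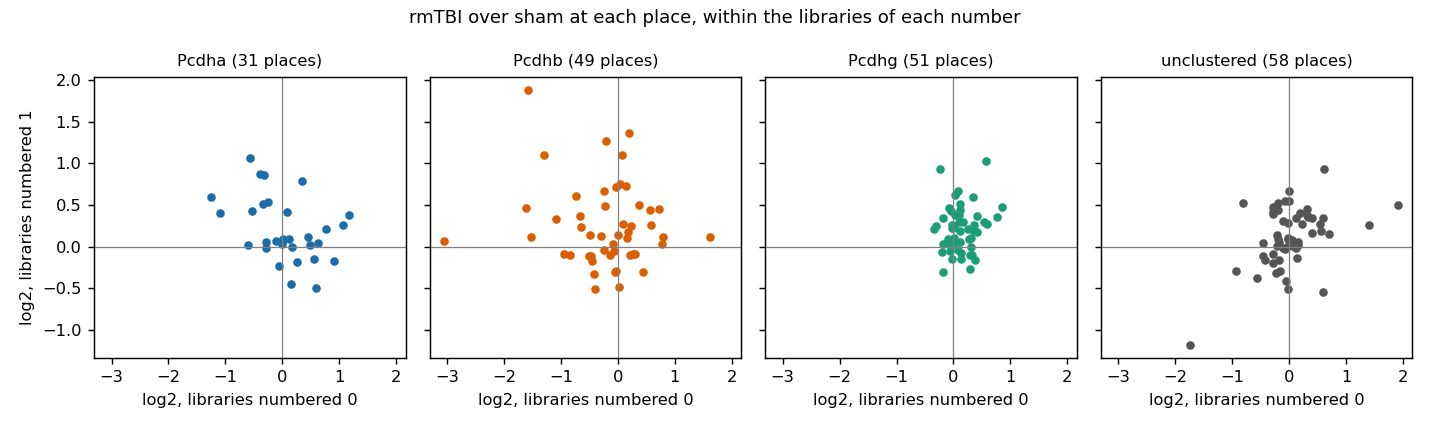
log2 ratio of rmTBI over sham at each tested protocadherin place, within the libraries numbered 0 (x axis) and within those numbered 1 (y axis), in 4 panels for 31 Pcdha, 49 Pcdhb, 51 Pcdhg and 58 unclustered places. Pcdhg places gather just above 0 on both axes, Pcdhb places spread to both sides along the x axis, and the unclustered place low on both axes is the Pcdh9 place at -1.74 and -1.18.

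Among Pcdha genes the smallest p-values belonged to variable-exon places with few counts. At Pcdha3 (36947751 to 36948052 on chromosome 18) the level was 3.11 and 3.49 CPM in rmTBI libraries 0 and 1, against 2.42 and 1.97 CPM in sham libraries 0 and 1. The groups did not overlap, and the log2 fold change was 0.60 (SE 0.34, unadjusted p = 0.120, edgeR). At Pcdha8 (36993329 to 36993480) counts were 27 and 34 in the rmTBI libraries, against 12 and 25 in the sham libraries, for 2.05 and 1.22 CPM against 0.855 and 0.914 CPM. The log2 fold change was 0.85 with an SE of 0.55, so it is within 2 standard errors of 0. The same holds for the place named Pcdha11 at 37005742 to 37005953, with a log2 fold change of 0.66 and an SE of 0.50. The place that all Pcdha transcripts share had a log2 fold change of 0.08 (SE 0.24). Pcdhac2, a C-type isoform that tiles serotonergic axons in the mouse, was highest among the variable-exon places at 37144727 to 37145117, with 13.3 and 11.9 CPM in the rmTBI libraries, against 13.2 and 11.3 CPM in the sham libraries, and a log2 fold change of 0.04 (SE 0.25). Those groups overlapped.

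Pcdhb genes had rmTBI over sham ratios of both signs, and none of their places passed the test. Summed over its places, each of the 19 genes was compared within each number: 8 were higher in rmTBI in both numbers, 3 were lower in both and 8 changed sign. Among all tested single rows, 32% were higher within both numbers and 28.5% lower, and summed genes were not counted over the whole table. The genes lower in both were Pcdhb13, Pcdhb19 and Pcdhb22, all downstream of Pcdhb12. Pcdhb2, Pcdhb3, Pcdhb5, Pcdhb7, Pcdhb9, Pcdhb10, Pcdhb11 and Pcdhb12, all up to that gene, were higher in both. Across genes, order along the cluster and the log2 ratio of rmTBI over sham had a Spearman rho of -0.64 within the libraries numbered 0 and of -0.48 within those numbered 1. These are descriptions over 19 neighbouring genes that share libraries, and the pattern was seen before it was described.

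The named Pcdhb places show the size of the spread. Pcdhb9 at 37401123 to 37401723 on chromosome 18 had 6.37 and 6.58 CPM in rmTBI libraries 0 and 1, against 4.21 and 5.49 CPM in sham libraries 0 and 1, which did not overlap. Its log2 fold change was 0.41 (SE 0.28, unadjusted p = 0.183, edgeR). A second Pcdhb9 place at 37402800 to 37403071 had 12 and 41 counts in the rmTBI libraries, against 11 and 14 counts in the sham libraries, and a log2 fold change of 0.94 (SE 0.63). Pcdhb12 at 37437047 to 37437613 had 0.985 and 2.63 CPM in the rmTBI libraries, against 0.927 and 1.17 CPM in the sham libraries. Its rmTBI library 0 lay between the sham values, and the log2 fold change was 0.81 (SE 0.58). Pcdhb20 at 37504263 to 37504742, among the most abundant, had 9.63 and 10.7 CPM in the rmTBI libraries, against 8.27 and 11.4 CPM in the sham libraries, with a log2 fold change of 0.04 (SE 0.28).

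Pcdhb18 was lower in rmTBI at its named rows, which cover the same place, without passing the test. Summed over its 2 short places, the gene changed sign. Its log2 ratio of rmTBI over sham was -0.52 within number 0 and 0.07 within number 1. Of the 49 tested Pcdhb places 24 had a log2 fold change below 0. In 4 of the 49 (8.16%) both rmTBI libraries were below both sham libraries, against 12.3% of all tested rows. The Pcdhb18 place at 37489911 to 37490181 had 2.88 and 5.40 CPM in rmTBI libraries 0 and 1, against 6.84 and 6.55 CPM in sham libraries 0 and 1. Both rmTBI values were below both sham values, and the log2 fold change was -0.66 (SE 0.34, unadjusted p = 0.093, edgeR). The gap was wide within number 0, at -1.22, and narrow within number 1, at -0.27. The longer row over it, 37489494 to 37490181, had 5.0 and 9.24 CPM in the rmTBI libraries, against 9.77 and 9.80 CPM in the sham libraries, with a log2 fold change of -0.44 (SE 0.33).

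Pcdhg genes leaned higher in most of the cluster. Summed over its places, 15 of the 21 genes were higher in rmTBI within both numbers, Pcdhga3 and Pcdhgc3 were lower in both, and 4 changed sign. All 7 Pcdhgb genes were among the 15. Among all tested single rows, 32% were higher within both numbers and 28.5% lower. Genes summed in this way were not counted over the whole table. At Pcdhga1 (37663021 to 37663322 on chromosome 18) the level was 2.58 and 3.85 CPM in rmTBI libraries 0 and 1, against 1.71 and 1.83 CPM in sham libraries 0 and 1. The groups did not overlap, and the log2 fold change was 0.87 (SE 0.38, unadjusted p = 0.053, edgeR); a shorter row within it, 37663051 to 37663232, had 0.99 (SE 0.40, unadjusted p = 0.041, edgeR).

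Pcdhga8 and Pcdhgb4 followed. Pcdhga8 at 37725795 to 37726065 had 6.37 and 4.06 CPM in the rmTBI libraries, against 3.49 and 2.89 CPM in the sham libraries, with no overlap and a log2 fold change of 0.70 (SE 0.34, unadjusted p = 0.073, edgeR). Pcdhgb4 at 37721056 to 37721236 had 5.38 and 3.63 CPM in the rmTBI libraries, against 3.14 and 2.82 CPM in the sham libraries, with a log2 fold change of 0.59 (SE 0.33). The most abundant Pcdhg places lay in the C-type genes and had smaller folds. Pcdhgc3 at 37806409 to 37807096 had 33.5 and 32.2 CPM in the rmTBI libraries, against 38.5 and 33.8 CPM in the sham libraries. Both rmTBI values were just below the sham values, and the log2 fold change was -0.14 (SE 0.24). Pcdhgc5 at 37819512 to 37819930 had 37.4 and 36.1 CPM in the rmTBI libraries, against 34.6 and 31.6 CPM in the sham libraries, without overlap, and a log2 fold change of 0.15 (SE 0.24). A second Pcdhgc5 place at 37820645 to 37821123 had 29.7 and 25.2 CPM in the rmTBI libraries, against 22.4 and 19.6 CPM in the sham libraries, without overlap, and a log2 fold change of 0.39 (SE 0.25).

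Among the unclustered genes, Pcdh9 and Pcdh1 had folds of opposite sign, by amounts that did not pass the test of group alone. All 7 tested Pcdh9 places had a log2 fold change below 0, and all 6 Pcdh1 places had one above 0. Places of a gene come from the same transcripts and are not independent. Both directions held within each number for the summed level: for Pcdh9 the log2 ratio was -0.23 within number 0 and -0.20 within number 1, and for Pcdh1 it was 0.32 and 0.31.

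At Pcdh9 the difference was widest at the 3' end. The last place, in the 3' UTR on chromosome 14 (93013799 to 93013950), had 5 and 16 counts in rmTBI libraries 0 and 1, against 21 and 39 counts in sham libraries 0 and 1, or 0.379 and 0.575 CPM against 1.5 and 1.43 CPM. The groups did not overlap, and the log2 fold change was -1.55 (SE 0.60, unadjusted p = 0.033, edgeR), the only member under an unadjusted p of 0.05 on the lower side. The next 3' UTR place (93015417 to 93015688) had 17.9 and 20.2 CPM in the rmTBI libraries, against 26.4 and 26.1 CPM in the sham libraries. It did not overlap either, with a log2 fold change of -0.46 (SE 0.25, unadjusted p = 0.099, edgeR). Among the Pcdh9 places of at most 2000 bases, the coding place at 93888007 to 93888788 had the highest CPM, with 127 and 163 CPM in the rmTBI libraries, against 144 and 181 CPM in the sham libraries. Those groups overlapped, and the log2 fold change was -0.16 (SE 0.25). A 5' UTR place at 93890528 to 93890679 was highest per kb, with 578 CPM per kb as a mean of the 4 libraries, and had a log2 fold change of -0.23 (SE 0.28).

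At Pcdh1 the coding and the 3' UTR places had folds of similar size. On chromosome 18, the place at 38197312 to 38197941 had 75.5 and 93.6 CPM in rmTBI libraries 0 and 1, against 59.9 and 73.3 CPM in sham libraries 0 and 1. Both rmTBI values were above both sham values, and the log2 fold change was 0.34 (SE 0.25, unadjusted p = 0.212, edgeR). A row at 38198359 to 38198659 had 48.4 and 59.5 CPM in the rmTBI libraries, against 35.9 and 46.5 CPM in the sham libraries, with a log2 fold change of 0.39 (SE 0.27). The place at 38199137 to 38199407 had 83.5 and 61.4 CPM in the rmTBI libraries, against 63.1 and 54.6 CPM in the sham libraries; rmTBI library 1 lay between the sham values, and the log2 fold change was 0.30 (SE 0.26). In the 3' UTR, the row at 38189533 to 38189863 had 20.0 and 29.1 CPM in the rmTBI libraries, against 17.0 and 21.7 CPM in the sham libraries, with overlap and a log2 fold change of 0.35 (SE 0.29). The coding place at 38202860 to 38203430 was closer to even, with 20.4 and 19.5 CPM in the rmTBI libraries, against 20.7 and 16.0 CPM in the sham libraries. Its log2 fold change was 0.13 (SE 0.26), with -0.02 within number 0 and 0.29 within number 1.

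**Figure D4:**
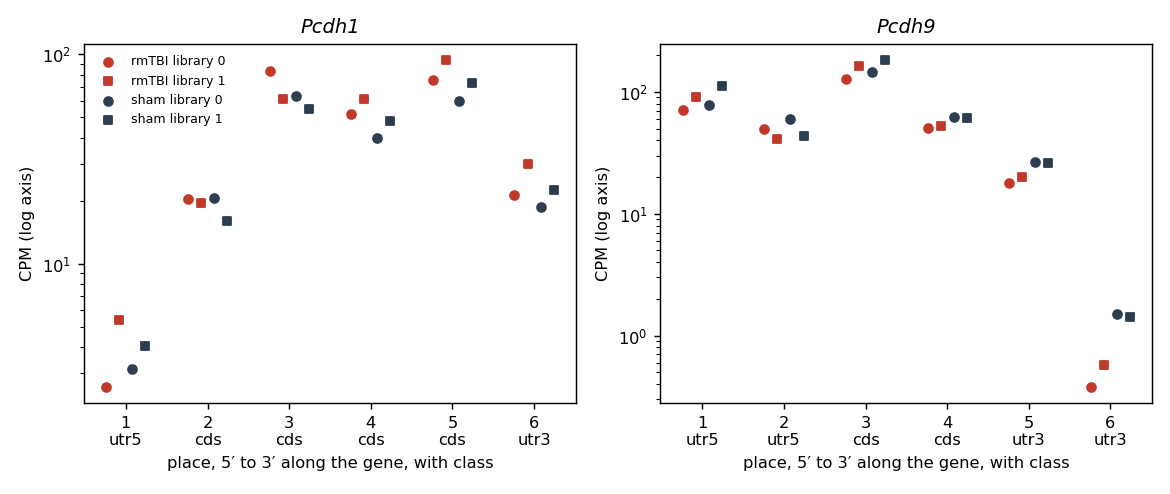
CPM in each library (log axis) at the places of at most 2000 bases of Pcdh1 (left) and Pcdh9 (right), ordered from the 5' to the 3' end of the gene with the authors' class under each, and with rmTBI points (red) left of sham points (dark). At Pcdh1 the rmTBI points of a number are above the sham points of the same number at 4 of 6 places in both numbers; at Pcdh9 they are below at all 6, most at the last place with 0.379 and 0.575 CPM in rmTBI libraries against 1.5 and 1.43 CPM in sham libraries.

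Pcdh8 and Pcdh15 gave the other small p-values. Pcdh8 at 79769073 to 79769312 on chromosome 14, in coding sequence, had 4.40 and 4.42 CPM in rmTBI libraries 0 and 1, against 2.85 and 2.27 CPM in sham libraries 0 and 1. The groups were apart, and the log2 fold change was 0.80 (SE 0.31, unadjusted p = 0.036, edgeR). The other Pcdh8 place, at 79767431 to 79767611, did not follow it, with 4.09 and 4.50 CPM in the rmTBI libraries, against 4.78 and 4.06 CPM in the sham libraries. Its log2 fold change was -0.03 (SE 0.29). Pcdh15 in its 3' UTR on chromosome 10 (74648388 to 74648569) had 32 and 43 counts in the rmTBI libraries, against 8 and 29 counts in the sham libraries. That is 2.43 and 1.55 CPM against 0.570 and 1.06 CPM without overlap, and a log2 fold change of 1.21 (SE 0.55, unadjusted p = 0.063, edgeR), which ran from 1.92 within number 0 to 0.51 within number 1. All 6 Pcdh15 places had a log2 fold change above 0.

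The remaining unclustered genes had log2 fold changes from -0.34 to 0.25 at their most abundant place, and none passed the test. Pcdh10 at 45378397 to 45378728 on chromosome 3 had 236 and 409 CPM in rmTBI libraries 0 and 1, against 227 and 387 CPM in sham libraries 0 and 1, and a log2 fold change of 0.07 (SE 0.35). Pcdh17 in its 3' UTR at 84532890 to 84534241 on chromosome 14 had 69.7 and 114 CPM in the rmTBI libraries, against 62.2 and 110 CPM in the sham libraries, and 0.09 (SE 0.36). Pcdh7 at 57720211 to 57722008 on chromosome 5 had 79.4 and 91.4 CPM in the rmTBI libraries, against 80.6 and 85.0 CPM in the sham libraries, and 0.05 (SE 0.23). In all of these the groups overlapped.

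On the X chromosome, Pcdh11x at 120401335 to 120401785 had 16.6 and 15.1 CPM in the rmTBI libraries, against 14.1 and 12.5 CPM in the sham libraries, without overlap and with a log2 fold change of 0.25 (SE 0.25). Pcdh19 at 133686646 to 133686857 had 7.43 and 7.48 CPM in the rmTBI libraries, against 7.06 and 7.42 CPM in the sham libraries, and 0.04 (SE 0.25). Pcdh18 at 49744761 to 49745091 on chromosome 3 had 1.44 and 2.63 CPM in the rmTBI libraries, against 1.71 and 3.29 CPM in the sham libraries, and -0.29 (SE 0.48). Pcdh20 in its 3' UTR at 88466891 to 88467459 on chromosome 14 had 10.3 and 15.3 CPM in the rmTBI libraries, against 10.4 and 21.8 CPM in the sham libraries, and -0.34 (SE 0.39). The groups overlapped at Pcdh18 and Pcdh20 and were only narrowly apart at Pcdh19. Each of these folds was about as large as its standard error or smaller.

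Between the library numbers some protocadherin rows did pass. In the same edgeR test of the libraries numbered 1 against those numbered 0, 22 of 364 member rows were called, 11 higher and 11 lower in number 1. That share is 6.04%, against 16.4% of all tested rows, a smaller share than in the table as a whole. Pcdha had 0 calls, Pcdhb had 2 higher, Pcdhg had 1 higher and 8 lower, and the unclustered genes had 8 higher and 3 lower. Of all tested rows, 7.17% were called higher and 9.25% lower. With scaling by library size alone, which moved the median of all rows by 0.10 on the log2 scale, 30 member rows were called and 25 of them were higher.

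The Pcdhb and Pcdhg clusters had medians on opposite sides of that of the whole table. The median log2 ratio of number 1 over number 0 was 0.54 for Pcdhb rows, of which 85 of 94 were above 0, and -0.30 for Pcdhg rows, of which 73 of 93 were below 0. It was 0.16 for Pcdha, 0.14 for unclustered rows and 0.04 over all tested rows. The medians within rmTBI were 0.63 for Pcdhb and -0.31 for Pcdhg, and within sham 0.38 and -0.27. Ratios were above 0 within both groups in 67 of 94 Pcdhb rows, against 39.8% of all tested rows, and below 0 within both in 66 of 93 Pcdhg rows, against 35.7%. By place the medians were 0.36 for Pcdhb, with 41 of 49 above 0, and -0.35 for Pcdhg, with 41 of 51 below 0. Restricted to coding rows, the medians were 0.57 for 88 Pcdhb rows and -0.30 for 89 Pcdhg rows, against -0.06 for the 16608 coding rows of other genes. These are counts over rows chosen by name, without a test.

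Put as a ratio of summed CPM, Pcdhb over Pcdhg was 0.392 in rmTBI library 1 and 0.398 in sham library 1, against 0.236 in rmTBI library 0 and 0.283 in sham library 0. The 2 libraries of each number were thus closer to each other than to the libraries of the other number. Summed Pcdhb levels were 158 and 144 CPM in library 1 of rmTBI and of sham, against 109 and 121 CPM in library 0. Summed Pcdhg levels were 403 and 361 CPM in library 1 of rmTBI and of sham, against 461 and 428 CPM in library 0.

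**Figure D5:**
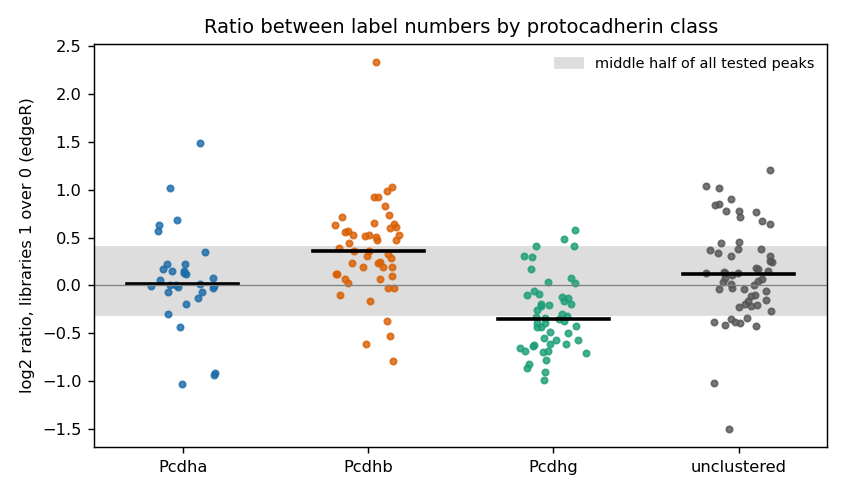
log2 ratio of the libraries numbered 1 over those numbered 0 (edgeR) at each tested protocadherin place, by class, with the median of each class as a black bar and the middle range (between the quartiles) of all tested peaks in grey. The Pcdhb bar is at 0.36 and the Pcdhg bar at -0.35; the Pcdha bar at 0.01 and the unclustered bar at 0.12 are between them.

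Among Pcdhg genes the ratio fell along the cluster as the level climbed. Across 21 genes, the Spearman rho between order and the log2 ratio of number 1 over number 0 was -0.67 within rmTBI and -0.58 within sham. All 9 places of the C-type genes had ratios below 0, as did 8 of 10 Pcdhgb places and 24 of 32 Pcdhga places. Counts, level and order move together here, and their parts in the ratio were not separated.

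The called Pcdhg rows were named mostly from the 3' part of the cluster. Pcdhgc4 at 37815108 to 37815288, in the 5' UTR class, had 4.39 and 3.73 CPM in library 1 of rmTBI and of sham, against 7.96 and 8.13 CPM in library 0. The numbers were apart, with a log2 ratio of -0.99 (SE 0.19, adjusted p = 0.0184, edgeR). A coding place of Pcdhgc4 at 37816483 to 37816694 had 4.03 and 3.07 CPM in library 1, against 6.52 and 6.42 CPM in library 0, and -0.86 (SE 0.23). Pcdhgb8 at 37762235 to 37762355 had 2.59 and 2.60 CPM in library 1, against 5.23 and 4.99 CPM in library 0, and -0.98 (SE 0.23, adjusted p = 0.0328, edgeR).

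Pcdhgb6 and Pcdhgc3 were lower too. Pcdhgb6 at 37742391 to 37742631 had 9.89 and 8.26 CPM in library 1 of rmTBI and of sham, against 16.6 and 13.0 CPM in library 0, and a log2 ratio of -0.70 (SE 0.18). Pcdhgc3 at 37807304 to 37807664 had 16.4 and 15.8 CPM in library 1, against 22.9 and 24.3 CPM in library 0, and -0.55 (SE 0.12). The first Pcdhgc3 place, 37806409 to 37807096, was not called and had -0.13 (SE 0.12), so places of the same exon differed. Pcdhga9 went the other way: at 37737862 to 37738221 it had 22.1 and 19.7 CPM in library 1, against 13.6 and 13.6 CPM in library 0, and 0.62 (SE 0.13, adjusted p = 0.0245, edgeR).

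In the Pcdhb cluster 2 rows were called. Pcdhb2 at 37294811 to 37295350 had 6.19 and 5.56 CPM in library 1 of rmTBI and of sham, against 3.56 and 2.92 CPM in library 0, and a log2 ratio of 0.86 (SE 0.23, adjusted p = 0.045, edgeR). Pcdhb21 at 37513890 to 37514670 had 4.68 and 4.79 CPM in library 1, against 2.27 and 2.71 CPM in library 0, and 0.92 (SE 0.25, adjusted p = 0.0464, edgeR). Neither call held when any library was left out. The highest ratios of the clustered genes were not called: Pcdhb3 at 37302259 to 37302379 had 19 and 13 counts in library 1, against 2 and 1 counts in library 0, and 2.33 (SE 0.85, adjusted p = 0.108, edgeR). Pcdha6 at 36967630 to 36967811 had 66 and 48 counts in library 1, against 10 and 10 counts in library 0, and 1.48 (SE 0.43, adjusted p = 0.0598, edgeR). The lowest ratio of the clustered genes was at Pcdhac1, another C-type isoform (37090072 to 37090223), with 1.44 and 1.06 CPM in library 1, against 1.59 and 3.49 CPM in library 0, and -1.03 (SE 0.47).

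Among unclustered genes the calls split by the kind of row. The called short rows were all higher in number 1. Over all tested unclustered places, 36 had a ratio above 0 and 22 below, and for Pcdh10 2 of 8 were above 0 and 6 below. Pcdh10 at 45378397 to 45378728 had 409 and 387 CPM in library 1 of rmTBI and of sham, against 236 and 227 CPM in library 0, and a log2 ratio of 0.78 (SE 0.08, adjusted p = 0.00433, edgeR). Pcdh17 in its 3' UTR at 84532890 to 84534241 had 114 and 110 CPM in library 1, against 69.7 and 62.2 CPM in library 0, and 0.77 (SE 0.10, adjusted p = 0.0063, edgeR). Pcdh17 in its 5' UTR at 84445812 to 84446052 had 10.1 and 7.68 CPM in library 1, against 4.78 and 3.56 CPM in library 0, and 1.09 (SE 0.24).

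Pcdh20 was called at both its 3' UTR and a coding place. The 3' UTR place at 88466891 to 88467459 had 15.3 and 21.8 CPM in library 1 of rmTBI and of sham, against 10.3 and 10.4 CPM in library 0, and a log2 ratio of 0.84 (SE 0.20). The coding place at 88468920 to 88469249 had 8.81 and 10.8 CPM in library 1, against 2.88 and 5.56 CPM in library 0, and 1.21 (SE 0.30, adjusted p = 0.038, edgeR). Pcdh7 in its 5' UTR at 57718415 to 57718955 had 41.1 and 41.1 CPM in library 1, against 32.1 and 29.4 CPM in library 0, and 0.42 (SE 0.11, adjusted p = 0.0478, edgeR). The highest ratios that were not called included Pcdh18 in its 5' UTR at 49757135 to 49757316, with 1.04 (SE 0.51).

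The unclustered rows called lower in number 1 were long spans. On chromosome 14 a Pcdh9 row of 325631 bases (93560520 to 93886150), classed as coding by the authors, had 1962 and 1996 CPM in library 1 of rmTBI and of sham, against 3928 and 4138 CPM in library 0. Its log2 ratio was -1.03 (SE 0.07, adjusted p = 0.00219, edgeR), with -1.0 within rmTBI and -1.05 within sham. Per kb that is 6.08 CPM in number 1 and 12.4 CPM in number 0. An overlapping row of the other set gave -1.02 (SE 0.07). A Pcdh10 row of 11443 bases on the strand opposite to the gene's other rows (45419505 to 45430947 on chromosome 3) had 11.7 and 11.6 CPM in library 1, against 30.4 and 35.2 CPM in library 0, and -1.49 (SE 0.13, adjusted p = 0.00348, edgeR). Of the 6047 rows of other genes longer than 2000 bases, 79.2% had a ratio below 0, with a median of -0.35. The 4 other long member rows, all of Pcdh15, had ratios from -0.20 to -0.04 and none was called.

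When any library was left out, 5 to 10 member rows were called for number 1 against number 0, or 1.35% to 2.7% of those tested, against 4.64% to 8.29% of all tested rows. The log2 ratios of the 22 rows called with all libraries then kept their sign, at 0.664 times their value or more. Both long Pcdh9 rows, both Pcdh10 rows and the 3' UTR row of Pcdh17 were called in each of these 4 fits. The named rows of Pcdhb2, Pcdhb21, Pcdhga9, Pcdhgb8, Pcdhgc3, Pcdhgc4 and Pcdh7 were called in 0 of them.

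The deposited fold changes follow a different contrast, and whether the numbers mark different kinds of library was not tested. Across the 370 member rows, the log2 value in the authors' deposited table had a Pearson r of 0.99 with the log2 ratio of library 1 over library 0 in rmTBI minus the same in sham (0.5 added to each count), and of -0.34 with rmTBI over sham; rows share reads, and both are descriptions. On that scale the deposited median was 0.23 for 97 Pcdhb rows, 0.14 for 104 unclustered rows, 0.08 for 93 Pcdhg rows and -0.12 for 76 Pcdha rows, against 0.06 over all rows. The smallest adjusted p of a member in the authors' deposited table is 0.998.

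The authors' deposited list of 277 higher peaks held 4 of the 370 member rows, against 0.815% of all rows. All 4 were of Pcdhb genes, or 4.12% of the 97 Pcdhb rows, a share given because that class held them. The deposited list of 146 lower peaks held 0 member rows, against 0.43% of all rows. By the p-value of the authors' unnamed test, 5 member rows (1.35%) were under 0.05, against 1.65% of all rows. Pcdhb17 at 37488497 to 37488678, which lies past the RefSeq end of that gene, had 0.606 and 1.47 CPM in rmTBI libraries 0 and 1, against 2.00 and 0.329 CPM in sham libraries 0 and 1, on counts of 8 and 41 against 28 and 9. The value in the authors' deposited table is 3.93 with a p of 0.00345, while the log2 ratio of rmTBI over sham was -1.57 within number 0 and 1.88 within number 1. Pcdhb15 at 37473569 to 37473719 had 1.21 and 1.76 CPM in the rmTBI libraries, against 3.14 and 0.768 CPM in the sham libraries, with 2.61 in the authors' deposited table. In both, the groups overlapped and rmTBI lay below sham in number 0 and above it in number 1.

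The other deposited members repeat this in part. Pcdhb15 at 37474462 to 37474821 had 0.606 and 2.27 CPM in rmTBI libraries 0 and 1, against 2.07 and 1.61 CPM in sham libraries 0 and 1, with 2.31 in the authors' deposited table. Pcdhb18 at 37489911 to 37490181 is listed as higher with 1.01 in the authors' deposited table, although both its rmTBI libraries were below both sham libraries. Its ratio of library 1 over library 0 was 0.88 in rmTBI and -0.06 in sham.

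Genes around the protocadherins were read from lists. In the other cadherin superfamily, the classical and giant cadherins and calsyntenins, 27 of 28 listed genes were measured with 168 tested rows, of which 0 were called for rmTBI against sham and 3 (1.79%) had an unadjusted p under 0.05 (edgeR), against 2.84% of all tested rows; 21 genes had a median above 0 and 6 below, with a median of 0.10 over genes. Cdh11, a mesenchymal and neuronal cadherin, had 6.75 and 5.97 CPM in rmTBI libraries 0 and 1, against 3.56 and 4.17 CPM in sham libraries 0 and 1, without overlap, and a log2 fold change of 0.71 (SE 0.28, unadjusted p = 0.036, edgeR). Cdh22 in its 3' UTR had 5.68 and 6.83 CPM in the rmTBI libraries, against 3.07 and 4.39 CPM in the sham libraries, also without overlap, and 0.74 (SE 0.31, unadjusted p = 0.044, edgeR).

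Regulators of the clustered genes were nearer to 0. For the factors of promoter choice and silencing (CTCF, cohesin, DNA methyltransferases and repressors), 14 of 16 genes were measured with 68 tested rows, of which 0 were called and 0 had an unadjusted p under 0.05 (edgeR); 8 genes were above 0 and 6 below, with a median of 0.03. Rest, a repressor of neuronal genes, had 0.985 and 1.44 CPM in the rmTBI libraries, against 1.92 and 1.65 CPM in the sham libraries, and -0.52 (SE 0.48). Setdb1, a histone methyltransferase that keeps the cluster silent, had 2.43 and 3.88 CPM in the rmTBI libraries, against 3.64 and 4.13 CPM in the sham libraries, and -0.28 (SE 0.34).

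Cytoplasmic partners and processing enzymes, the kinases, WAVE complex subunits and proteases that act on protocadherin tails, were measured for 15 of 19 genes with 47 tested rows, of which 0 were called and 1 (2.13%) had an unadjusted p under 0.05 (edgeR), against the same 2.84%. Of the 15, 14 were above 0 and 1 below, with a median of 0.11. Abi2, a WAVE complex subunit, had 4.17 and 4.24 CPM in rmTBI libraries 0 and 1, against 2.00 and 2.74 CPM in sham libraries 0 and 1, without overlap, and 0.81 (SE 0.33, unadjusted p = 0.040, edgeR). Marcks, an actin-binding target of protein kinase C, had 63.4 and 82.7 CPM in the rmTBI libraries, against 49.8 and 61.8 CPM in the sham libraries, and 0.39 (SE 0.26).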

How the data were processed

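The authors deposited raw read counts for each peak and library, whole numbers without normalization. Per the file headers, the table also holds the authors' log2 fold change, p-value and FDR from an unnamed test. STAR, DESeq2 and GRCm39 are named in the submitters' processing notes; no source used here states the peak caller, the counter or its strand setting. The coordinates are those of the deposited table and fit RefSeq spans of GRCm38.p6, not the build in the notes. Members and lists were chosen with earlier results of these data known.

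Tests of the counts used edgeR 4.0.16 under R 4.3.3: TMM, filterByExpr, quasi-likelihood F-test, Benjamini-Hochberg adjustment over 33415 rows, 2 residual degrees of freedom, calls at an adjusted p under 0.05. The SE is the size of the log2 fold change over the square root of F. Ratios within a number or group use log2 CPM with a prior count of 2. Rows over 2000 bases were merged apart. The code was tested on simulated data. Alternatives were DESeq2 1.42.0, library-size scaling, no filter, at least 10 counts in every library, an added label number or group, leaving out each library, and, chosen after seeing the data, 1 row per place. Full values were printed, by rule, for the 3 smallest p-values and 2 highest levels of each class, called members, members of the deposited lists, extreme number ratios and the most abundant place of each unclustered gene. No sequence is shown.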

Additional observations from a re-analysis of the deposited data

Results flagged for a closer look

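Among the rows given full values, 2 Pcdhb rows were flagged because rmTBI and sham differed in opposite directions in the 2 numbers. Each difference was beyond the counting error of the library pair (95% exact interval). Both rows were named for being on the authors' deposited list of higher peaks. Values on that list follow the number ratio in rmTBI over that in sham, so the choice of rows favours such opposite directions. The difference between the numbers itself was not tested. At Pcdhb15 (37473569 to 37473719) the log2 ratio of rmTBI over sham was -1.30 in number 0 and 1.10 in number 1, on counts of 16 and 49 in rmTBI libraries 0 and 1 against 44 and 21 in sham libraries 0 and 1. At Pcdhb17 (37488497 to 37488678) it was -1.57 in number 0 and 1.88 in number 1. Seen the other way, the Pcdhb17 ratio of number 1 over number 0 was 1.16 in rmTBI and -2.30 in sham. Groups of 2 libraries are too small for a check of single outlying libraries.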

How the results depend on the processing

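With the library number as a replicate block in the test of rmTBI against sham, 18 member rows were called, 11 higher and 7 lower, or 4.95%, against 10.6% of all rows (5.42% higher and 5.22% lower). In the labels, same-numbered libraries share only a number. Their counts were alike in other ways: totals were 13753600 and 14437317 in number 0, against 26888072 and 26356562 in number 1. Their deviations from the group means correlated with r = 0.66 over 30145 peaks. Still, 2 pairs do not show that the numbers pair the samples. The calls were 7 rows of Pcdh1 (log2 0.28 to 0.39), 2 of Pcdhgc5 (0.37 and 0.38), 1 of Pcdh8 (0.81) and 1 of Pcdh15 (0.39) higher, and 6 of Pcdh9 (-0.45 to -0.16) and 1 of Pcdhb18 (-0.65) lower. The count was 0 under every other alternative that was run. For number 1 against number 0, 85 of the 364 member rows were called with group added. Over all tested rows of the table, 38.1% were called in that fit, a larger share than among the members. With 1 row per place, 13 of 189 members (6.88%) were called, and 5 to 10 member rows were called with a library left out. With a library left out, median log2 folds of rmTBI over sham ran from -0.048 to 0.20 for Pcdha, from -0.26 to 0.41 for Pcdhb, from -0.020 to 0.30 for Pcdhg and from 0.019 to 0.14 for unclustered rows. Median number ratios then ran from 0.07 to 0.25 for Pcdha, from 0.35 to 0.65 for Pcdhb, from -0.40 to -0.20 for Pcdhg and from 0.12 to 0.24 for unclustered rows. With 1 row per place they were 0.012 for Pcdha, 0.36 for Pcdhb and -0.35 for Pcdhg. With library-size scaling they were -0.20 for Pcdhg and 0.24 for unclustered rows, and with at least 10 counts in every library -0.27 for Pcdhg. With overlap counted from 50% of the peak, 65.2% of the rmTBI set overlapped the sham set. Single values turned sign at Pcdhb12 (-0.11 to 1.29 over the fits without a library), Pcdh9 93888007 (-0.36 to 0.014) and Pcdh9 93890528 (-0.47 to 0.047). A fit without a library leaves that group with a single number, so the ratio between the numbers enters its fold. How far this accounts for the changes was not tested. Places with few counts, such as Pcdhb3 with 2 and 1 counts in library 0 of rmTBI and of sham, allow only wide estimates.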
